A study of Mus musculus with 12 samples.

Results

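The 26S proteasome is the protease that degrades ubiquitin-tagged proteins, and its subunit genes were followed in c-Kit+ AML cells exposed to CCS1477, an inhibitor that binds the bromodomains of the acetyltransferases p300 and CBP. Members were all rows of the deposited table whose mouse symbol begins with Psma, Psmb, Psmc, Psmd, Psme, Psmf or Psmg and a number, without pseudogenes. The rule found 48 of 15651 genes. Of these, *Psmc3ip* (a meiotic recombination factor) and *Psme2b* (an annotated copy of *Psme2*) share a symbol but are not known parts of the complex, so counts are given over the other 46 genes. *Psmb9* and *Psmg4* were not analysed here.

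c-Kit+ splenocytes came from 3 moribund *D/F* mice (*Dnmt3a* fl/fl, *Flt3* ITD/ITD, *Mx1*-Cre) and 3 moribund *T/F* mice (*Tet2* fl/fl, *Flt3* ITD/ITD, *Mx1*-Cre), so every group carried the homozygous *Flt3* internal tandem duplication. Cells of each mouse were enriched with CD117 (c-Kit) beads before treatment and divided between CCS1477 and the solvent DMSO for 6 hours, at 4 µM CCS1477 in *D/F* cells and 2 µM in *T/F* cells, in medium with SCF, IL-3 and IL-6. This gave 12 libraries in 4 groups of 3. Genotype and dose cannot be told apart, because each genotype had 1 dose. The *Mx1* promoter driving Cre responds to interferon and was not induced with pIpC, so deletion of the floxed alleles relied on leaky expression. Either 1 or both alleles may be deleted, and the extent in each mouse is not given in the sources used here. Values are TPM, an abundance scaled by transcript length and by the total of the library, in which fewer cells of a type and less RNA per cell cannot be told apart. Read numbers cannot be recovered from TPM, and depth is therefore unknown.

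The catalytic core, the 20S particle, is a barrel of outer alpha rings and inner beta rings, and *Psmb5*, *Psmb6* and *Psmb7* encode its standard proteolytic subunits. In blood cells and after interferon, *Psmb8*, *Psmb9* and *Psmb10* encode subunits that take their places and form the immunoproteasome, which is known for making peptides that are loaded on MHC class I. The 19S particle, made of an ATPase ring and non-ATPase subunits, recognizes and unfolds ubiquitinated substrates, and other activators (*Psme1* to *Psme4*) can cap the core in its place. Dedicated chaperones, which leave before the particle is complete, assemble the core (Psmg genes) and the base of the 19S particle (*Psmd5*, *Psmd9* and *Psmd10*).

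Sequence upstream of 5 members is shown because they share short motifs and differ in the direction of the changes described below. Each stretch ends at the annotated start (RefSeq, GRCm38.p6, or the first base outside a GENCODE exon of the gene), is written 5′ to 3′ on the gene's own strand, and spans at most 140 bases. Capitals mark the E-box CACGTG, the antioxidant response element TGACNNNGC and the ETS motif CCGGAAG, searched on both strands. The stretch of *Psmd9* precedes its RefSeq start and lies inside the longer GENCODE gene (chr5:123169413-123250131), and the window of *Psmb8* is not shown because it lies in an exon of the gene.
*Psmb10* (chr8:105938445-105938532, minus strand): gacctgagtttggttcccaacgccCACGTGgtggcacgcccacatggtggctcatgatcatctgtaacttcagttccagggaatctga
*Psme3* (chr11:101316073-101316212, plus strand): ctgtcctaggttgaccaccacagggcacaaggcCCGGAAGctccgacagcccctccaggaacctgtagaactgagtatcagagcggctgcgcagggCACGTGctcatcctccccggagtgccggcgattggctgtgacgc
*Psmd9* (chr5:123228050-123228189, plus strand): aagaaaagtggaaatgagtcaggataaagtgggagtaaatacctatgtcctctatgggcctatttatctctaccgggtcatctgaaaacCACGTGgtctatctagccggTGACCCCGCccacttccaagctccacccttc
*Psmb5* (chr14:54618023-54618135, minus strand): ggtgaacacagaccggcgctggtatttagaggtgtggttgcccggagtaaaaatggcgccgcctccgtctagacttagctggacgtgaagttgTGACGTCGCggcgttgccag
*Psmb6* (chr11:70525217-70525356, plus strand): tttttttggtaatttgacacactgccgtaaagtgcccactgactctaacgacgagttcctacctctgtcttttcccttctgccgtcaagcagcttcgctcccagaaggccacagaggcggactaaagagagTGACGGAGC

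In the 250 bases before the start, 38 of the 46 genes had a RefSeq promoter, and the motifs were chosen after the genes' values had been seen. Members were counted at the first RefSeq start of each gene, and the shares of all promoters cover every start. The E-box stood in 4 of the 38 (10.5%) and in 6.02% of all 32851 promoters. It was found at -116 in *Psmb10* and at -44 in *Psme3*, which fell with CCS1477, at -51 in *Psmd9*, which rose, and at -140 in *Psma4*, which was not called. The antioxidant response element, the motif through which the transcription factor Nrf1 is known to act on proteasome genes, stood in 5 of 38 (13.2%) and in 10.2% of all promoters. Those 5 were *Psmb5*, *Psmb6*, *Psmc6*, *Psmd9* and *Psmd12*. The ETS motif stood in 11 of 38 (28.9%), against 6.91% of all promoters. Of these, *Psme3* and *Psmg1* fell, *Psme4* rose, and 8 subunit genes of the 19S particle (*Psmc1*, *Psmc2*, *Psmc6*, *Psmd2*, *Psmd4*, *Psmd6*, *Psmd11* and *Psmd12*) were not called over both genotypes without the mouse as a block. At a second start, *Psma6*, which fell (-0.41, adjusted p = 0.0149), also held an ETS match at -132. The interferon-linked IRF motif (GAAA, 2 free bases, GAAA) was in 3 of 38 (7.89%, against 2.98% of all promoters). The structural gene *Psmb3* held a match at -163, and *Psmb8* and *Psmb10* held none. No match of the NF-kB motif (GGGA, 1 free base, TTTCC) was found, which 0.356% of all promoters hold, and the NF-Y motif CCAAT was in 13 of 38 (33.8% of all promoters).

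In DMSO, the standard subunits were abundant and of similar level. Of the 31 genes for alpha, standard beta and 19S subunits, 30 had mean TPM between 94.0 (*Psmd4*) and 345 (*Psma3*), with a median of 161. *Psmd8*, which encodes a 19S lid subunit, was the exception, at 0.402 to 2.46 TPM over the 12 libraries, a level far below its partners. *Ptprc*, which encodes CD45 and is expressed by leukocytes, was likewise at 0.826 to 3.11 TPM. Low values of single genes in this table are therefore not read as absence. *Psma8* and *Psmb11*, known from testis and thymus, were at 1.69 to 7.54 and 3.25 to 5.67 TPM.

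One mouse stood apart. In both libraries of *D/F* replicate 2 the summed TPM of the 31 standard genes was the lowest of its treatment, at 4064 with DMSO and 3641 with CCS1477, while the other 10 libraries lay between 5070 and 5877. It was the lowest of the 6 DMSO libraries for 30 of the 31 genes and the lowest of the 6 CCS1477 libraries for 29. The median difference of these genes from the mean of the other 5 libraries was -0.53 with DMSO and -0.60 with CCS1477 on the log2(TPM + 1) scale, against 0.24 and 0.18 over all genes of the table. The DMSO library of this mouse had the highest *Cd34* (447 TPM, others 95.0 to 201) and *Kit* (149 TPM, others 50.5 to 67.0) of the 6. Several results that rest on it are given with and without it.

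**Figure D1:**
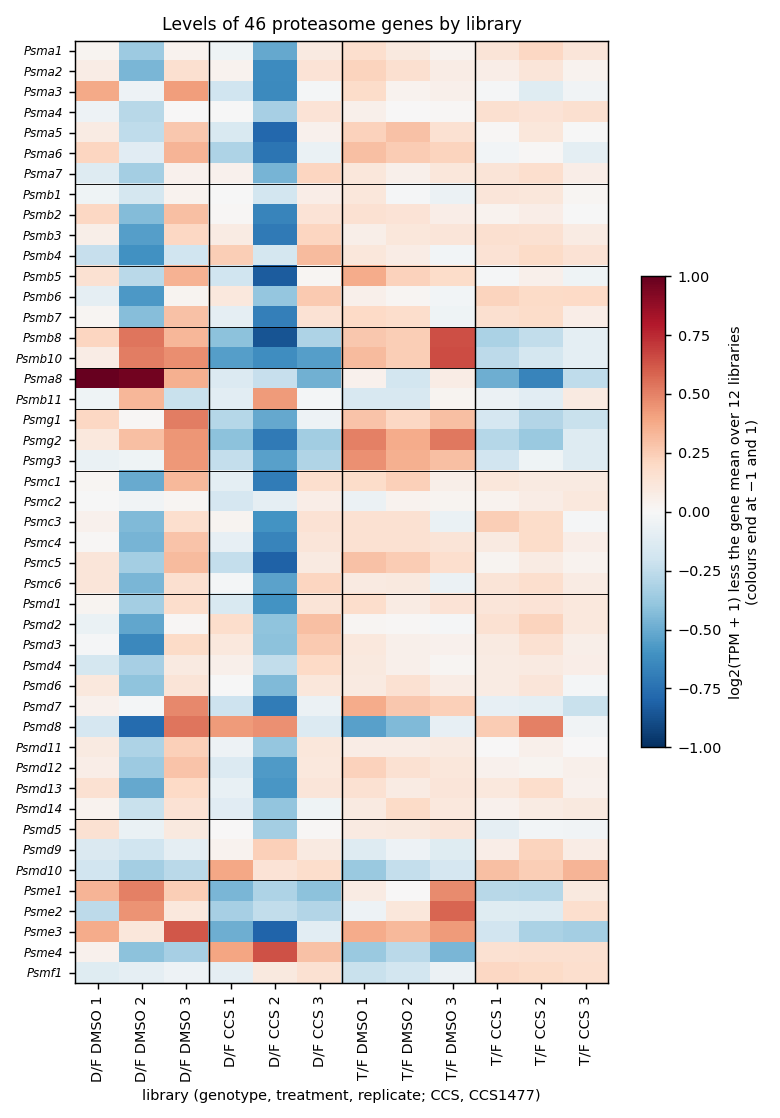
Level of 46 proteasome genes (rows, grouped by role) in the 12 libraries (columns), as log2(TPM + 1) less the mean of the gene over the 12 libraries. Red is above and blue below the gene's mean, and the columns of *D/F* replicate 2 are blue for most subunits of the 20S and 19S particles, while *Psmb8*, *Psmb10*, the Psmg genes and *Psme3* are redder in DMSO than in CCS1477 columns.

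To ask how p300/CBP bromodomain inhibition acted on transcripts of the complex, CCS1477 was compared with DMSO by limma on log2(TPM + 1). Genes with an adjusted p under 0.05 (Benjamini-Hochberg over all genes tested) are termed called, whatever their fold change. With the genotypes fitted together (genotype as a term, 6 libraries per treatment), the inducible catalytic subunits (2 of 2), the core assembly chaperones (3 of 3) and the activators *Psme1* and *Psme3* fell, while *Psme4*, the inhibitor gene *Psmf1* and the base chaperones *Psmd9* and *Psmd10* rose. Most subunits of the 20S and 19S particles were not called. *Psma6*, *Psma8* and *Psmd7* fell as well. In all, 10 of the 46 genes fell (21.7%, against 19.6% of the 15583 genes tested) and 4 rose (8.70%, against 25.8%). In this fit, which leaves out the pairing by mouse, the share that fell was close to the background and the share that rose was below it. None of the 46 passed a 2-fold limit as well, which 8.80% of all genes did. The median log2 fold change of the 46 genes was -0.08, and that of all genes tested was 0.07.

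With the mouse as a block, which the pairing of the cells allows, 18 members fell (39.1%, against 25.9% of all genes) and 7 rose (15.2%, against 34.5%). Without *D/F* replicate 2 and without the block, 15 fell (22.8% of all genes) and 7 rose (32.6% of all genes). Direction in single mice gave a like picture. The TPM was lower with CCS1477 in all 6 mice for 22 of the 46 genes (47.8%, against 24.2% of all genes) and higher in all 6 for 7 (15.2%, against 31.8%). Under quantile normalization the calls became 10 lower and 9 higher (3176 and 4397 of all 15583 genes). The members' median was then 0.04, against 0.06 over all genes. Median-gene scaling with the block gave 24 lower and 5 higher (4631 and 4655 of all genes), with medians of -0.15 and 0.01. The balance of small changes among members thus depended on the scaling.

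**Figure D2:**
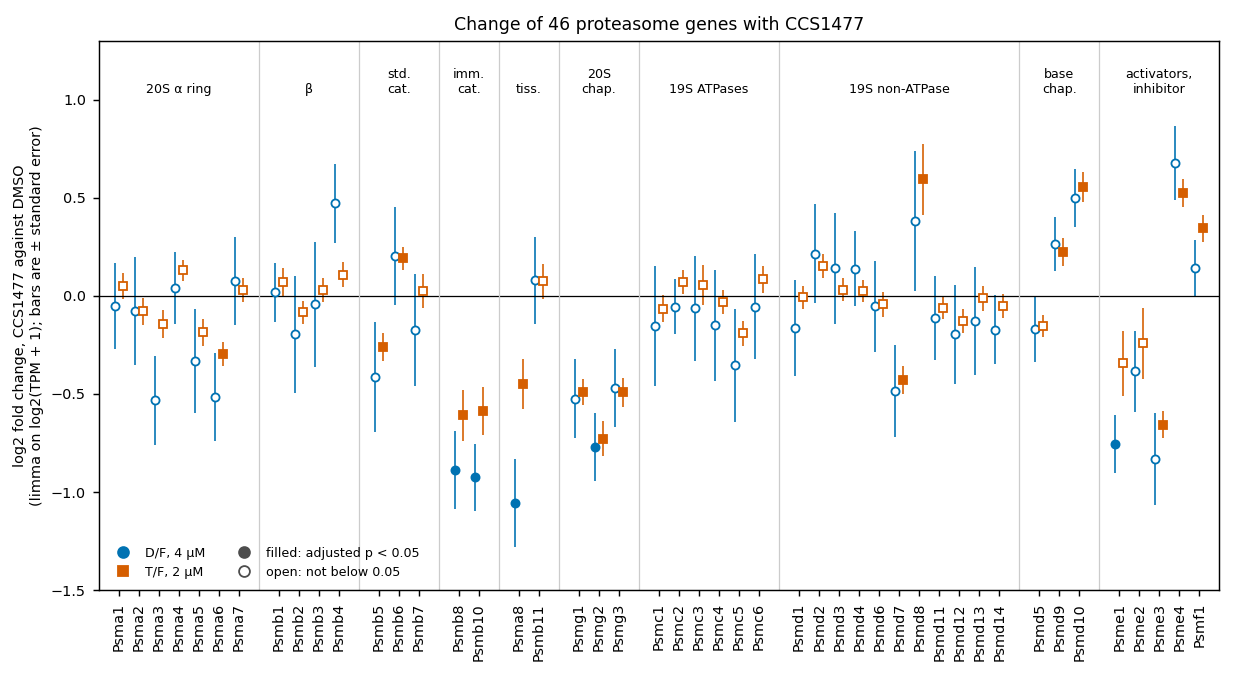
Log2 fold change of the 46 genes in *D/F* (circles, 4 µM) and *T/F* cells (squares, 2 µM), by limma on log2(TPM + 1), with bars of 1 standard error and filled symbols at an adjusted p under 0.05. *Psmb8*, *Psmb10*, *Psma8*, the Psmg genes and *Psme3* lie below 0 and *Psme4* and *Psmd10* above 0 in both genotypes, while no symbol of the 6 19S ATPase genes is filled.

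Within *D/F*, 5 members fell (10.9%, against 6.51% of 15501 genes) and 0 rose (5.14% of all genes), while 7 were lower (14.3% of all genes) and 2 higher (16.1%) at an unadjusted p under 0.05. The 5 were *Psmb8*, *Psmb10*, *Psme1*, *Psmg2* and *Psma8*. With the block, 12 fell (18.0% of all genes) and 3 rose (21.4%). Within *T/F*, 10 members fell (21.7%, against 17.6% of 15256 genes) and 6 rose (13.0%, against 25.8%). With the block, 13 fell (22.9% of all genes) and 5 rose (31.2%). Above 2-fold, 1 member passed in *D/F* (*Psma8*, with 7.28% of all genes) and 0 in *T/F* (7.33%). The *D/F* calls depended on the mice included. Without *D/F* replicate 2, 5 members fell (10.8% of all genes) and 1 rose (13.8%), and these were not all the same genes: *Psme3* and *Psma3* gained a call as lower and *Psmb4* as higher, and *Psma8* and *Psmg2* lost theirs. But without replicate 1 or without replicate 3 neither a member nor any other gene was called in the fit without the block. With the block and without replicate 1, 3 members fell and 0 rose, while 905 of all 15539 genes rose and 1089 fell. With the block and without replicate 3, no gene was called.

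The inducible catalytic subunits fell in both genotypes. Values are given for replicates 1, 2 and 3 in that order. *Psmb8*, which encodes the immunoproteasome subunit of chymotrypsin-like activity and lies at chr17:34197721-34201454 on the plus strand (GRCm38), was at 131, 164 and 142 TPM in *D/F* with DMSO and at 84.7, 61.7 and 91.1 TPM with CCS1477. In *T/F* it was at 136, 134 and 177 TPM with DMSO and at 90.3, 95.2 and 105 TPM with CCS1477. All 6 mice were lower with CCS1477 and the treatments did not overlap within a genotype. On the log2 scale *Psmb8* changed by -0.89 ± 0.20 (SE) in *D/F* cells, with an adjusted p of 0.0388 by limma, and by -0.61 ± 0.13 (SE) in *T/F* cells, with an adjusted p of 0.013.

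*Psmb10*, the counterpart with trypsin-like activity (chr8:105935735-105938444, minus strand, with the E-box shown above), followed the same course at a lower level. It was at 45.4, 61.8 and 59.9 TPM in *D/F* DMSO and 29.0, 27.7 and 29.1 TPM in *D/F* CCS1477 libraries. The *T/F* libraries held 54.1, 51.5 and 68.5 TPM with DMSO and 35.8, 38.0 and 40.3 TPM with CCS1477. The treatments stood apart in both genotypes, and the *D/F* libraries lay closer together with CCS1477 than with DMSO. On the log2 scale *Psmb10* changed by -0.92 ± 0.17 (SE) in *D/F* cells, with an adjusted p of 0.0241, and by -0.59 ± 0.12 (SE) in *T/F* cells, with an adjusted p of 0.0118. Without *D/F* replicate 2, the *D/F* changes were -0.63 for *Psmb8* and -0.82 for *Psmb10* (adjusted p = 0.0312 and 0.0385).

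The standard catalytic subunits moved less. *Psmb5*, which *Psmb8* replaces, was at 183, 136 and 209 TPM in *D/F* DMSO and 143, 91.8 and 167 TPM in *D/F* CCS1477 libraries. The *T/F* values were 212, 193 and 187 TPM with DMSO and 163, 170.1 and 160.0 TPM with CCS1477. It was lower in all 6 mice, by a log2 fold change of -0.41 in *D/F* (adjusted p = 0.368) and -0.26 in *T/F* (adjusted p = 0.0312), and the *D/F* value passed with the block (adjusted p = 0.0355). *Psmb7*, which *Psmb10* replaces, was at 180.5, 132 and 218 TPM (DMSO) and 167, 110.4 and 197 TPM (CCS1477) in *D/F* cells, and at 204, 201 and 173 TPM (DMSO) and 198, 202 and 186 TPM (CCS1477) in *T/F* cells. The treatments overlapped in both genotypes, with log2 fold changes of -0.17 (adjusted p = 0.729) and 0.02 (adjusted p = 0.843). *Psmb6*, the caspase-like standard subunit, was at 274, 196 and 298 TPM (DMSO) and 315, 223 and 350.0 TPM (CCS1477) in *D/F* cells, and at 302, 297 and 286 TPM (DMSO) and 342, 333 and 336 TPM (CCS1477) in *T/F* cells. It went the other way, higher in all 6 mice, with log2 fold changes of 0.20 (adjusted p = 0.628) and 0.19 (adjusted p = 0.0395). *Psmb5* and *Psmb6* thus differed in direction, and the promoters of both hold an antioxidant response element, at -47 and -9.

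To set each induced subunit against the one it replaces, the ratio of their TPM was taken in every library. These are ratios of transcripts, and the protein makeup of the complex was not measured. *Psmb8*/*Psmb5* was 0.718, 1.20 and 0.680 with DMSO and 0.592, 0.672 and 0.546 with CCS1477 in *D/F* cells, while the *T/F* ratios were 0.642, 0.695 and 0.948 with DMSO and 0.552, 0.560 and 0.659 with CCS1477. *Psmb10*/*Psmb7* was 0.251, 0.466 and 0.275 with DMSO and 0.174, 0.251 and 0.148 with CCS1477 in *D/F* cells, while the *T/F* ratios were 0.265, 0.256 and 0.396 with DMSO and 0.181, 0.188 and 0.216 with CCS1477. Both ratios were lower in 6 of 6 mice, and the largest DMSO values were those of *D/F* replicate 2 and *T/F* replicate 3. With labels permuted within genotype (400 assignments, smallest possible p = 0.005), the log2 ratio of *Psmb8* to *Psmb5* fell by 0.42 (two-sided exact permutation p = 0.015, adjusted over 2 pairs 0.015). That of *Psmb10* to *Psmb7* fell by 0.70 (exact permutation p = 0.005, adjusted 0.01). Within 1 genotype, where 3 against 3 libraries cannot give an exact permutation p under 0.1, p was 0.1 for both *D/F* ratios, and 0.2 and 0.1 for the *T/F* ratios. The ratio of *Psmb9* to *Psmb6* was not analysed here.

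**Figure D3:**
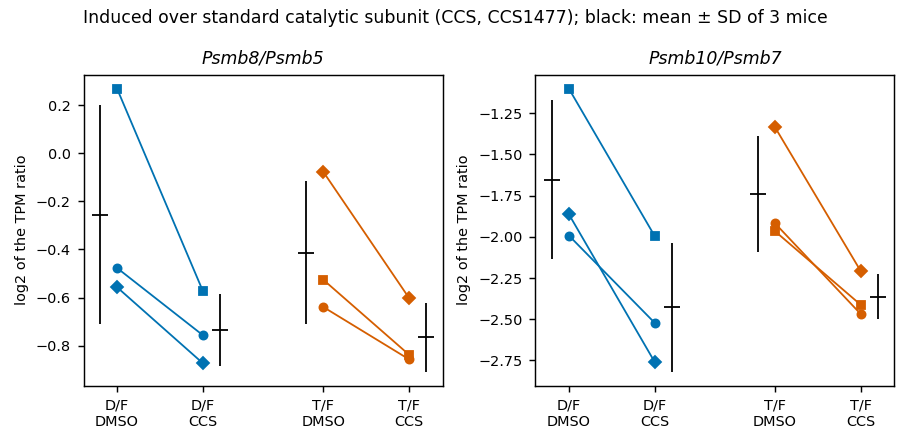
Log2 TPM ratio of an induced to a standard catalytic subunit in the 12 libraries, with a line for each mouse (blue *D/F*, orange *T/F*; circle, square and diamond for replicates 1, 2 and 3) and the mean ± SD of 3 mice in black. Every line falls from DMSO to CCS1477, and the highest DMSO values belong to *D/F* replicate 2 and *T/F* replicate 3.

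As a share of the summed TPM of *Psmb5*, *Psmb7*, *Psmb8* and *Psmb10*, the induced subunits made up 32.7%, 45.7% and 32.1% in the *D/F* DMSO libraries and 31.4%, 32.0% and 40.6% in the *T/F* DMSO libraries. With CCS1477 the *D/F* shares were 26.8%, 30.7% and 24.8%, and the *T/F* shares 25.8%, 26.3% and 29.6%. The mice with the highest share with DMSO were those with the highest *Cd34* (447 and 201 TPM) and *Kit* (149 and 67.0 TPM) and the lowest *Mpo* (1163 and 1244 TPM) of the 6 DMSO libraries, and the part of this cell makeup in the levels was not tested. Markers of other cells were lower with CCS1477 in part. The summed TPM of 2 of 3 macrophage markers with values (*Adgre1* and *Cd68*) lay between 55.3 and 68.5 in *D/F* DMSO libraries and between 23.1 and 33.5 after CCS1477, and for *T/F* between 77.1 and 91.2 and then 36.0 and 44.9. That of 6 progenitor markers lay between 2260 and 6325 in *D/F* DMSO libraries and between 612 and 2767 after CCS1477, with overlap. For *T/F* it lay between 2124 and 3383 and then 918 and 1696, without overlap. *Mpo* (1163 to 3673 TPM in *D/F* DMSO libraries) and *Elane* (454 to 2480 TPM) made up most of this sum. Over both genotypes *Kit*, *Cd34*, *Flt3* and *Mpo* were called lower. *Elane* (-1.07, adjusted p = 0.0831) and *Ptprc* (-0.10, adjusted p = 0.688, lower in 3 of 6 mice) were not called. The sum of the natural killer markers *Nkg7* and *Klrb1c* lay between 103 and 161 TPM in *D/F* DMSO libraries and between 5.77 and 26.9 TPM after CCS1477, and for *T/F* between 65.5 and 100.1 and then 13.7 and 24.6 TPM. That sum was carried by *Nkg7* (-2.51, adjusted p = 0.000153 over both genotypes), while *Klrb1c* was not called (-0.90, adjusted p = 0.0709) and lay between 0 and 0.0431 TPM in the *T/F* DMSO libraries. For 3 mast cell and basophil markers the *D/F* sum lay between 77.5 and 178 TPM and then 18.7 and 43.3 TPM, without overlap, and the *T/F* sum between 36.3 and 73.9 TPM and then 18.1 and 37.5 TPM, with overlap. For 4 neutrophil markers the sums overlapped between treatments, at 99.9 to 528 TPM and then 18.1 to 359 TPM in *D/F* and at 143 to 456 TPM and then 85.5 to 306 TPM in *T/F* libraries. Of these 4, *Ly6g* was called lower (-1.496, adjusted p = 0.0134), *Camp* (-1.51, adjusted p = 0.067) and *Mmp8* (-1.79, adjusted p = 0.0647) were not, and *Ltf* (-0.15, adjusted p = 0.901) was lower in 1 of 6 mice. The part of these cells in the changes of the immunoproteasome genes was not tested. Of the T cell and B cell lists, 3 of 5 and 1 of 4 markers had values, none was called, and the B cell sum stayed under 2.38 TPM. Of 2 dendritic markers, *Clec9a* was called lower (-2.14, adjusted p = 0.000186) and *Siglech* was not called (-0.10, adjusted p = 0.748). No erythroid or megakaryocyte marker with values was called.

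The genes that work with the immunoproteasome in antigen processing changed in both directions, with 4 above 0 and 4 below over both genotypes. Of the 8 listed, 3 fell over both genotypes (19.6% of all genes) and 0 rose (25.8%), and with the block 3 fell (25.9%) and 3 rose (34.5%). *Tap2*, a subunit of the peptide transporter whose gene neighbours *Psmb8*, changed by -1.14 (standard error 0.27, adjusted p = 0.00489), *Nlrc5*, the transactivator of MHC class I genes, by -1.03 (standard error 0.27, adjusted p = 0.00894), and the trimming peptidase *Erap1* by -0.43 (adjusted p = 0.00649). *Tap1*, the other transporter subunit, was at -0.08 (adjusted p = 0.714). The interferon-linked factor *Irf1* was at 0.31 (adjusted p = 0.187), and *B2m*, the MHC class I light chain, at 0.35 (adjusted p = 0.111, and 0.00302 with the block).

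The activators of the core changed in opposite directions. *Psme1*, which encodes the alpha subunit of the interferon-inducible PA28 cap (chr14:55578123-55581529, plus strand), was at 314, 353 and 294 TPM with DMSO and 181, 201 and 186 TPM with CCS1477 in *D/F*. In *T/F* it was at 263, 249 and 345 TPM with DMSO and 204, 203 and 265 TPM with CCS1477, where the treatments overlapped, with replicate 3 the highest in both. On the log2 scale *Psme1* changed by -0.76 ± 0.15 (SE) in *D/F* cells, with an adjusted p of 0.0275, and by -0.34 ± 0.17 (SE) in *T/F* cells, with an adjusted p of 0.148, and the latter passed with the block (adjusted p = 0.00918). *Psme2*, the beta subunit, was at 128, 209 and 165 TPM (DMSO) and 122, 129 and 125 TPM (CCS1477) in *D/F* cells, and at 148, 166 and 230.2 TPM (DMSO) and 141, 140.4 and 172 TPM (CCS1477) in *T/F* cells. It was lower in all 6 mice, the treatments overlapped in both genotypes, and the change over both was -0.31 (adjusted p = 0.0808, and 0.0193 with the block). Without *D/F* replicate 2, which had the largest fall of *Psme2*, the *D/F* change was -0.23. Reads of *Psme2* and of its copy *Psme2b*, at 3.50 to 15.6 TPM, could be split between them, so both values are uncertain.

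*Psme3* encodes PA28 gamma, a nuclear activator that acts without ubiquitin (chr11:101316213-101323537, plus strand). It was at 295, 246 and 350.3 TPM in *D/F* DMSO and 162, 130.5 and 212 TPM in *D/F* CCS1477 libraries. In *T/F* cells the values were 295, 284 and 307 TPM with DMSO and 199, 183 and 179.7 TPM with CCS1477. No CCS1477 library reached a DMSO library of its genotype. On the log2 scale *Psme3* changed by -0.83 ± 0.23 (SE) in *D/F* cells, with an adjusted p of 0.0679, and 0.00781 with the block (-0.79 and 0.0496 without replicate 2 and without the block), and by -0.66 ± 0.07 (SE) in *T/F* cells, with an adjusted p of 0.00134. *Psme4* encodes PA200, another nuclear cap, known for a part in the breakdown of acetylated histones (chr11:30771726-30880361, plus strand). It was at 106, 76.8 and 81.3 TPM in *D/F* DMSO and 135, 160.4 and 126 TPM in *D/F* CCS1477 libraries. The *T/F* libraries held 79.0, 85.1 and 74.3 TPM with DMSO and 114, 115 and 115 TPM with CCS1477. Every CCS1477 library was above every DMSO library of its genotype, and the 3 *T/F* libraries with CCS1477 differed by about 1 TPM. On the log2 scale *Psme4* changed by 0.68 ± 0.19 (SE) in *D/F* cells, with an adjusted p of 0.066, and 0.0377 with the block, and by 0.53 ± 0.07 (SE) in *T/F* cells, with an adjusted p of 0.00259. Without *D/F* replicate 2, which had the largest rise of *Psme4*, the *D/F* change was 0.49.

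Set side by side, the TPM ratio of *Psme4* to *Psme3* was 0.358, 0.312 and 0.232 with DMSO and 0.833, 1.23 and 0.594 with CCS1477 in *D/F*, and 0.268, 0.299 and 0.242 and then 0.574, 0.629 and 0.637 in *T/F*. This ratio was chosen after its values were seen and has no test. *Psmf1*, which encodes the inhibitor PI31, was at 36.9, 37.7 and 38.8 TPM (DMSO) and 37.8, 43.2 and 45.0 TPM (CCS1477) in *D/F* cells, and at 34.3, 35.4 and 38.6 TPM (DMSO) and 46.5, 46.2 and 45.3 TPM (CCS1477) in *T/F* cells. The *T/F* treatments did not overlap and the *D/F* treatments did, with log2 fold changes of 0.34 (adjusted p = 0.00964) and 0.14 (adjusted p = 0.543).

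**Figure D4:**
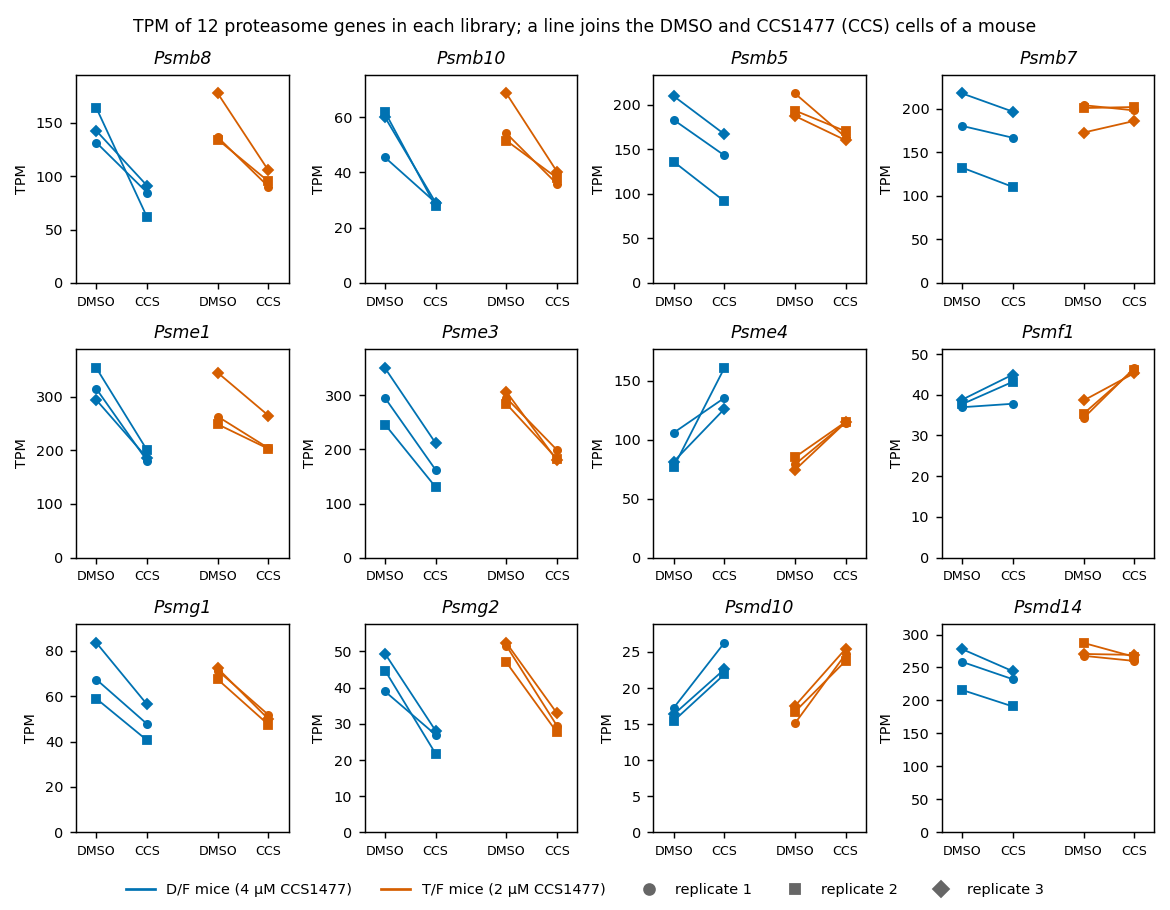
TPM of 12 proteasome genes in each library (vertical axes from 0), with a line joining the DMSO and CCS1477 cells of a mouse, *D/F* in blue and *T/F* in orange. Lines fall in all 6 mice for *Psmb8*, *Psmb10*, *Psmb5*, *Psme1*, *Psme3*, *Psmg1*, *Psmg2* and *Psmd14* and rise in all 6 for *Psme4*, *Psmf1* and *Psmd10*, while those of *Psmb7* differ between mice.

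The chaperones of the core and of the 19S base also parted. *Psmg2*, which pairs with *Psmg1* to build the alpha ring, was at 38.9, 44.7 and 49.4 TPM in *D/F* DMSO and 27.0, 21.7 and 28.1 TPM in *D/F* CCS1477 libraries. The *T/F* values were 51.6, 47.0 and 52.4 TPM with DMSO and 29.5, 27.6 and 32.9 TPM with CCS1477. The treatments stood apart in both genotypes, with log2 fold changes of -0.77 (standard error 0.17, adjusted p = 0.0384) and -0.73 (standard error 0.09, adjusted p = 0.00198). *Psmg1*, its partner, and *Psmg3*, another core chaperone gene, changed by -0.51 and -0.48 over both genotypes (adjusted p = 0.00164 and 0.00206). *Pomp*, the chaperone that completes the core and carries no Psm symbol, was at -0.07 (adjusted p = 0.629).

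*Psmd10*, which encodes the base chaperone gankyrin, was at 17.3, 15.4 and 16.3 TPM in *D/F* DMSO and 26.3, 21.9 and 22.6 TPM in *D/F* CCS1477 libraries. In *T/F* cells the values were 15.1, 16.7 and 17.5 TPM with DMSO and 24.7, 23.8 and 25.4 TPM with CCS1477. All 6 mice were higher with CCS1477 and the treatments stood apart, with log2 fold changes of 0.50 (standard error 0.15, adjusted p = 0.0752, and 0.018 with the block) and 0.56 (standard error 0.08, adjusted p = 0.00272). *Psmd9*, another base chaperone, was at 20.5, 19.7 and 21.2 TPM (DMSO) and 23.3, 26.9 and 24.2 TPM (CCS1477) in *D/F* cells, and at 20.6, 21.9 and 20.8 TPM (DMSO) and 23.8, 26.6 and 23.9 TPM (CCS1477) in *T/F* cells. It was also higher in every mouse, by a smaller step of 0.24 over both genotypes (adjusted p = 0.00872). *Psmd5*, the third of this class with values, was lower in every mouse, at -0.16 (adjusted p = 0.11, and 0.0182 with the block).

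The structural subunits changed little and unevenly. Of the 7 alpha ring genes, *Psma6* alone was called over both genotypes (-0.41, standard error 0.12, adjusted p = 0.0149), and with the block *Psma3* (-0.34, adjusted p = 0.0115) and *Psma5* (-0.26, adjusted p = 0.00874) were called too. None of the 4 structural beta genes was called without the block. With it *Psmb4* was higher (0.29, adjusted p = 0.0168) and *Psmb2* lower (-0.14, adjusted p = 0.0319). The 6 ATPase genes ranged from -0.27 (*Psmc5*) to 0.01, with 95% intervals between -0.60 and 0.32, and *Psmc5* was called with the block (adjusted p = 0.00527). Of the 11 non-ATPase genes, *Psmd7*, which encodes the lid partner of the deubiquitinase *Psmd14*, fell in *T/F* (-0.43, adjusted p = 0.00573) and was at -0.49 in *D/F* (adjusted p = 0.221, and 0.0389 with the block). With the block, *Psmd2* (0.18, adjusted p = 0.0115) and *Psmd12* (-0.16, adjusted p = 0.0149) were called over both genotypes too.

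*Psmd14*, the deubiquitinase itself, was at 258, 216 and 278 TPM (DMSO) and 232, 191 and 244 TPM (CCS1477) in *D/F* cells, and at 268, 287 and 270.5 TPM (DMSO) and 259.9, 266 and 269 TPM (CCS1477) in *T/F* cells, lower by small steps in all 6 mice, not called (-0.11, adjusted p = 0.313) and of changed sign within each genotype under quantile normalization. *Psmd4*, a ubiquitin receptor, was at 85.2, 76.3 and 103 TPM (DMSO) and 99.6, 81.0 and 111 TPM (CCS1477) in *D/F* cells, and at 103, 99.9 and 97.3 TPM (DMSO) and 102, 102 and 101 TPM (CCS1477) in *T/F* cells. The treatments overlapped and the change was 0.08 (adjusted p = 0.516), with a changed sign in *T/F* under median-gene scaling. *Psmd8* was called higher in *T/F* (0.59, adjusted p = 0.0409) at its near-zero level, and the call was lost with the block (adjusted p = 0.0761).

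The testis-linked core subunit *Psma8* had the largest fall of any member in *D/F*, at a low level. It was at 7.54, 7.30 and 4.44 TPM in *D/F* DMSO and 2.86, 2.63 and 2.06 TPM in *D/F* CCS1477 libraries. The *T/F* libraries held 3.39, 2.76 and 3.47 TPM with DMSO and 2.03, 1.69 and 2.56 TPM with CCS1477. It fell in all 6 mice, with log2 fold changes of -1.06 (standard error 0.22, adjusted p = 0.0342) and -0.45 (standard error 0.13, adjusted p = 0.0344). Without *D/F* replicate 2, the *D/F* calls of *Psma8* (-0.99, adjusted p = 0.0669) and of *Psmg2* (-0.65, adjusted p = 0.0504) were lost. On the log2(TPM + 1) scale a change at such a level is understated. The thymus-linked *Psmb11* was at 0.08 (adjusted p = 0.628).

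Genes that feed or attend the proteasome, taken from a list made with earlier results of these data known, held calls in both directions. Of the 36 with values, 9 rose and 6 fell over both genotypes (25.8% and 19.6% of all genes), and with the block 13 rose and 9 fell (34.5% and 25.9% of all genes), so their counts lay near the shares of all genes. Among shuttle factors and proteasome-bound proteins, *Ubqln2* rose by 0.93 in *D/F* cells (adjusted p = 0.0138) and by 0.87 in *T/F* cells (adjusted p = 0.000577), from between 28.1 and 31.4 TPM to between 53.4 and 62.1 TPM over the 6 mice. Its relative *Ubqln4* fell by 0.80 and 0.61 on the log2 scale (adjusted p = 0.0377 and 0.00191), and *Ubqln1* was at -0.13 (adjusted p = 0.299). *Zfand5*, an activator of the 26S particle, rose by 1.01 and 0.69 (adjusted p = 0.0477 and 0.00577), and *Akirin2*, which brings proteasomes into the nucleus, by 0.53 over both genotypes (adjusted p = 7.43e-05). *Usp14*, a deubiquitinase on the 19S particle, changed by -0.57 (adjusted p = 7.07e-05), and the shuttle *Rad23b* by -0.44 (adjusted p = 0.0092).

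The factors known to control proteasome gene transcription did not move together. *Nfe2l1*, which encodes Nrf1, was at -0.04 (adjusted p = 0.711) and its protease gene *Ddi2* at -0.16 (adjusted p = 0.141). Within *T/F* cells *Ddi2* fell by 0.35 on the log2 scale (adjusted p = 0.00751), from 33.6, 35.7 and 34.8 TPM with DMSO to 25.8, 27.6 and 27.9 TPM with CCS1477. In *D/F* cells it was at 0.02 (adjusted p = 0.942). The difference between these responses was not called, with or without the block, and genotype and dose cannot be told apart. *Ngly1*, which encodes the glycanase that processes Nrf1, rose by 0.75 over both genotypes (adjusted p = 9.53e-05) and *Nfe2l2* by 0.39 (adjusted p = 0.01). The polyubiquitin gene *Ubb* rose by 0.37 (adjusted p = 0.000252), and the ubiquitin-activating gene *Uba6* by 0.57 (adjusted p = 0.000164), whereas *Uba1* was at -0.12 (adjusted p = 0.197).

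The responses of the genotypes, which also differ in dose, were compared by the difference of the log2 fold changes, *T/F* minus *D/F*. None of the 46 genes was called (0 in all 15583 genes, 0%), with the lowest adjusted p at 1.00, or 0.192 with the block. At an unadjusted p under 0.05, 1 member passed, with 390 genes higher and 269 lower in all. That member was *Psma8*, with a difference of 0.61 (standard error 0.26). The next by p were *Psme1* (0.41), *Psmb4* (-0.36), *Psmb10* (0.34) and *Psma3* (0.39), each with a standard error between 0.20 and 0.24. Of the calls within genotypes, 4 genes were shared (*Psmb8*, *Psmb10*, *Psmg2* and *Psma8*, all lower), which is 80.0% of the 5 *D/F* calls and 25.0% of the 16 *T/F* calls. Over all genes 1623 calls were shared, or 89.9% of the *D/F* and 24.5% of the *T/F* calls. With the block 13 members were shared, 86.7% of the 15 *D/F* and 72.2% of the 18 *T/F* calls, against 83.7% and 61.9% over all genes.

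In DMSO alone, *T/F* was compared with *D/F*. None of the 46 genes was called (5 of 15265 genes, 0.0328%), with 2 members at an unadjusted p under 0.05, and 387 genes higher and 552 lower in all. These were *Psma8*, lower in *T/F* (-0.80, standard error 0.21, adjusted p = 0.535), and *Psmb4*, higher (0.40, standard error 0.15, adjusted p = 0.75). *Psma7*, *Psmg3* and *Psmg2* followed by p (0.23, 0.26 and 0.18). Of the 46 log2 differences, 39 were above 0, with a median of 0.14 against -0.04 over all genes. Without *D/F* replicate 2 the median was -0.01 and 22 were above 0, so the offset rested on that mouse.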

How the data were processed

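RNA of 12 libraries was sequenced by the study (ribosome depletion and an Illumina TruSeq Stranded mRNA kit are both named), and the authors quantified transcripts with kallisto on mm10, per the submitters' notes, and deposited TPM per gene. The deposited TPM table holds 15651 genes, each reaching at least 2.00 TPM in some library. limma 3.58.1 (R 4.3.3) was fitted without an intensity trend to log2(TPM + 1), keeping genes whose mean reached 1 TPM in a group compared. P-values were two-sided with Benjamini-Hochberg adjustment over all genes tested. The mouse was added as a block in an alternative: labels give both libraries of a mouse the same animal, and their deviations from the group means correlated at 0.354 to 0.669 (at most 0.141 between different mice). TPM ratios were compared by exact permutation within genotype, which did not keep the pairing by mouse. Its p-values were adjusted over 2 pairs, since the third was not analysed here. By rule, values in each library are given for catalytic subunits, activators, *Psmf1*, *Psmd14*, *Psmd4* and the up to 5 largest calls each way over both genotypes. Promoter sequences came from RefSeq (GRCm38.p6), gene positions from GENCODE. Fits were tested on simulated data with changes of at least 2-fold in abundant genes, so the smaller changes of most members were not covered. Some genes of the partner list are counted but not reported here by name, and 1 motif searched is not reported here. Members and lists were chosen with earlier results of these data known. Alternatives changed the pseudocount, filter, scaling, trend, samples fitted and fold limit.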

Additional observations from a re-analysis of the deposited data

How the results depend on the processing

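The count of called proteasome genes kept within 1.5 times its value under another pseudocount, filter, scaling or an intensity trend, and changed with the design. With the mouse as a replicate block, the calls were 15 in *D/F* (5 without the block) and 25 over both genotypes (14 without), and on median-scaled libraries with the block 15 and 29. Over all genes, the median-scaled fits with the block called 2990 higher and 3124 lower in *D/F*, and 4655 and 4631 over both. In *T/F* the block gave 18 against 16. A single fit of 4 groups gave 13 in *D/F* (over all 15501 genes 2706 rose and 2234 fell) and 9 in *T/F* (over all 15256 genes 2112 rose and 1601 fell). A 2-fold limit gave 1, 0 and 0 in *D/F*, in *T/F* and over both (7.28%, 7.33% and 8.80% of all genes). Leaving out 1 mouse gave 0 to 6 calls in *D/F* (0 without replicate 1 or 3), 6 to 13 in *T/F* (6 without replicate 1 or 2) and 13 to 22 over both (22 without *D/F* replicate 2). The calls over all genes moved as well. In *D/F* they were 0 without replicate 1 or 3, and 2092 higher and 1647 lower without replicate 2. In *T/F* they were 1936 and 1537, 1748 and 1444, and 2921 and 2201 without replicates 1, 2 and 3. Over both they were 5025 and 3521 without *D/F* replicate 2. With the block and 1 mouse left out, a choice made after seeing the data, member calls were 0 to 11 in *D/F* (3 without replicate 1, 0 without replicate 3), 10 without *T/F* replicate 2, and 23 to 25 over both (24 without any 1 *D/F* mouse). Over all genes, these fits called 905 higher and 1089 lower without *D/F* replicate 1, and 2708 and 2307 without *D/F* replicate 2. None was called without *D/F* replicate 3, and 2761 and 2349 were without *T/F* replicate 2. Over both genotypes 4778 to 5389 were higher and 3714 to 3919 lower. The log2 ratio *Psmb8*/*Psmb5* ranged from -0.47 to -0.32 and that of *Psmb10*/*Psmb7* from -0.76 to -0.64 when a mouse was left out, and the former had an adjusted p of 0.05 without *D/F* replicate 1 (-0.47) or *T/F* replicate 2 (-0.43). The difference between genotypes and the comparison in DMSO had 0 calls among members in each alternative. Of the single-gene values under alternatives, 369 kept direction and side of the threshold, 23 gained and 40 lost a call, and 7 changed sign. Those were *Psmb7* in *T/F* (-0.054 with median-gene scaling, -0.017 to 0.058 with a mouse left out, the lowest without replicate 3), *Psmd14* with quantile normalization (0.0015 in *D/F*, 0.040 in *T/F*), *Psmd4* in *T/F* with median-gene scaling (-0.054) and *Psma7* in *T/F* (-0.049 with median-gene scaling, -0.013 to 0.065 with a mouse left out, the lowest without replicate 2). The cause of these changes was not tested. Median-gene scaling gave 4 lower and 0 higher in *D/F*, 13 and 3 in *T/F*, and 11 and 2 over both. Over all genes it gave 1204 lower and 1084 higher, 3154 and 3139, and 3427 and 3610. Quantile normalization gave 4 and 1, 8 and 8, and 10 and 9, and over all genes 1294 and 1552, 2829 and 3933, and 3176 and 4397. Depth cannot be set against these values, since TPM holds no reads.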

Other observations

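Genes that carry a Psm symbol without being known parts of the complex were measured as well. *Psmc3ip*, which encodes a partner of meiotic recombinases, was lower with CCS1477 in all 6 mice, with a log2 fold change of -0.49 over both genotypes (standard error 0.12, adjusted p = 0.00685 by limma). Its values were 13.1, 17.3 and 17.6 TPM (DMSO) and 10.4, 8.56 and 13.2 TPM (CCS1477) in *D/F* cells, and 17.8, 14.5 and 15.5 TPM (DMSO) and 13.7, 11.2 and 9.93 TPM (CCS1477) in *T/F* cells. *Psme2b*, whose reads may be shared with *Psme2*, ranged from 3.50 to 15.6 TPM. Its log2 fold change was not called in *D/F* cells (-0.97, adjusted p = 0.0991) or *T/F* cells (0.11, adjusted p = 0.725), and the difference of the responses (1.09) was not called (adjusted p = 1.00).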
